A study of Homo sapiens with 18 samples.

Results

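HNRNPLL and 9 further genes that encode RNA-binding splicing regulators were followed across the 3 RNA-seq experiments of a neuroblastoma cell line with and without overexpressed ABCC1. The genes were taken by their Ensembl identifiers and are HNRNPLL, HNRNPL, PTBP1, PTBP2, ELAVL2, ELAVL3, ELAVL4, NOVA1, NOVA2 and RBFOX2, 10 of the 57905 Ensembl genes counted. HNRNPLL was selected on its measured values, chosen by its counts being lower with ABCC1 in all 3 experiments, so its differences between the lines are described here and not tested. The other 9 were chosen as regulators of neuronal splicing, though with earlier results of these data known. Their tests are those of a fit across all genes.

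All libraries came from BE(2)-m17, an established human neuroblastoma line, and all cells carried the pSBbi-Hyg-APP vector, a Sleeping Beauty transposon that expresses the amyloid precursor protein. The control line, called Puro, carried the empty pSBbi-Pur vector in addition, and the ABCC1 line carried pSBbi-Pur-ABCC1(WT), which expresses the ATP-driven exporter ABCC1. Each experiment, named RNA1, RNA2 and RNA3 in the labels, held 3 Puro and 3 ABCC1 libraries, 18 in all, from cells lysed on day 4 after plating. Each line is a single stable transfection whose cells were plated anew each week according to the study's methods, so the spread between libraries is that of cultures of a line and not of independent lines. By the order in which the study describes its repeat experiments, RNA2 was taken as cells thawed from the earlier lines and RNA3 as newly transfected cells. RNA1 was prepared with a TruSeq kit, and RNA2 and RNA3 with the SMARTer Pico total RNA kit, so levels are set side by side between RNA1 and the later experiments without a test. Per library, RNA1 had 27433393 to 57937653 assigned read pairs, RNA2 had 19577853 to 30996228 and RNA3 had 8866994 to 13332413. The codon-optimised ABCC1 transgene had at most 15 counts in every Puro library and at least 51035 in every ABCC1 library, so the libraries matched their labels. In RNA1, ABCC1 replicates 1 and 2 were close to each other (chi-square of counts 1.48 per degree of freedom), while replicate 3 stood apart from both (21.5 and 16.1). All 12 markers of adrenergic neuroblastoma cells were above background in each of the 6 groups, with 7 called lower and 2 higher with ABCC1 in RNA1, where 37.6% of all genes were called, none in RNA2, where 1.7% of all genes were, and 2 lower and 1 higher in RNA3, where 2.8% were. Of 12 mesenchymal markers, 12 were above background in RNA1 and 10 in RNA2 and RNA3, with 5 called higher and 4 lower in RNA1, 1 higher in RNA2 and none in RNA3, against the same 37.6%, 1.7% and 2.8% of all genes.

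The proteins studied bind pre-mRNA beside exons and help or hinder the spliceosome in using them. HNRNPL binds CA-rich RNA, and its paralog HNRNPLL is known from lymphocytes, where it drives skipping of variable exons of the CD45 transcript. PTBP1 represses neuronal exons in dividing cells and also an exon of PTBP2 that the PTBP2 mRNA needs to be stable, and neurons exchange the former protein for the latter as they differentiate. The neuronal Hu proteins ELAVL2, ELAVL3 and ELAVL4, the NOVA proteins and the RBFOX proteins bind U-rich, YCAY and GCAUG elements, respectively, and set many exons of the nervous system. The deposited values are counts per gene and give the amount of each regulator's mRNA, not the splicing of its targets. In cultures sequenced as a whole, fewer cells expressing a gene and less of its RNA per cell cannot be told apart.

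HNRNPLL (ENSG00000143889) lies on the minus strand at chr2:38789120-38830728 on GRCh37, and its annotated exons cover 5923 bases that no exon of another gene overlaps. HNRNPL (ENSG00000104824) lies on the minus strand at chr19:39327028-39342987, and 8.23% of its 6821 exon bases are shared with an unnamed gene on the same strand, whose read pairs could not be told apart there. The RefSeq promoter windows of both, 250 bases before to 50 after the start of transcription on GRCh38.p14, are shown because these were the members whose counts were lower with ABCC1 in all 3 experiments. Capitals mark matches, on either strand, to the letters CCAAT, the CCAAT box, and GGGCGG, the GC box. CACGTG and TATAAA were searched on both strands as well and had no match in these windows, and no 2 matches overlapped.
HNRNPLL, chr2:38602879-38603178, minus strand: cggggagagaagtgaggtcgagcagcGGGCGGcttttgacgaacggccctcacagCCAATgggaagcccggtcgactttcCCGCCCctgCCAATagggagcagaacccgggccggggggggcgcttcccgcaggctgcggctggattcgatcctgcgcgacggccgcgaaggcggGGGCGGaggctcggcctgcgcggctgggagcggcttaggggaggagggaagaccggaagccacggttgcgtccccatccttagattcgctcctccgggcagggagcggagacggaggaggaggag
HNRNPL, upstream start, chr19:38852298-38852597, minus strand: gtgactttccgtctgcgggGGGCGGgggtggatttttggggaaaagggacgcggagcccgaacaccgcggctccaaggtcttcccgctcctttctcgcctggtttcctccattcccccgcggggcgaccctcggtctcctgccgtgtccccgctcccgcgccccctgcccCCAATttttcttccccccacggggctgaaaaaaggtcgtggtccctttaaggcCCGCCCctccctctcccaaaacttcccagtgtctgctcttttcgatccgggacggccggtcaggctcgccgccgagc
HNRNPL, downstream start, chr19:38849937-38850236, minus strand: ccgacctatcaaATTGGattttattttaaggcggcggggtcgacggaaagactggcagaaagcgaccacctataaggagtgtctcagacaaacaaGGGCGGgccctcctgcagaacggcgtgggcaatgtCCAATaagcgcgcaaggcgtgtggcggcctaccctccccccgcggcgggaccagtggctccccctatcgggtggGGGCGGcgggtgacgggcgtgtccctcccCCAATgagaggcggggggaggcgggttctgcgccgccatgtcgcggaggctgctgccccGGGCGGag

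The HNRNPLL window held 2 CCAAT boxes and 3 GC boxes. The upstream HNRNPL window held 1 CCAAT box and 2 GC boxes, and the downstream window held 3 of each. Of 35116 RefSeq promoter windows of this length, 34.6% held CCAAT and 45.0% held GGGCGG on either strand, while 7.26% held CACGTG and 11.5% held TATAAA. RefSeq windows were matched for 8 of the 10 genes, with none matched for ELAVL3 and RBFOX2.

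HNRNPLL was lower in the ABCC1 line in each experiment, and no ABCC1 library reached the level of a Puro library of the same experiment. Its level is given as counts per 1000000 counts (CPM) after TMM scaling within the experiment, divided by the kilobases of exon. In RNA1 the Puro libraries had 1870, 1149 and 1484 counts, or 7.26, 7.12 and 7.95 CPM per kb, and the ABCC1 libraries had 820, 489 and 797 counts, or 2.45, 2.56 and 2.32 CPM per kb. In RNA2 the Puro libraries had 613, 1646 and 1530 counts, or 4.58, 9.30 and 12.4 CPM per kb, against 519, 437 and 537 counts, or 3.35, 3.38 and 2.93 CPM per kb, with ABCC1. In RNA3 the Puro libraries had 523, 603 and 495 counts, or 8.04, 9.24 and 8.71 CPM per kb, against 153, 239 and 303 counts, or 2.21, 3.47 and 4.22 CPM per kb, with ABCC1. The ABCC1 libraries lay close together in RNA1 and RNA2 and were more spread in RNA3, and Puro replicate 1 of RNA2 stood well below the other two control libraries.

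The log2 fold change (log2FC) of HNRNPLL was -1.61 (SE 0.06, n = 3 against 3) in RNA1, a level 3.06-fold lower with ABCC1. It was -1.45 (SE 0.23) in RNA2 and -1.39 (SE 0.17) in RNA3, or 2.73-fold and 2.62-fold lower. In RNA2 the log2FC was -1.73 without Puro replicate 1 and -1.10 without Puro replicate 3, and in RNA3 it was -1.12 without ABCC1 replicate 1. Of all genes tested, 316 of 16995 in RNA1, 2313 of 34091 in RNA2 and 284 of 36509 in RNA3 had a more negative log2FC than HNRNPLL. In a joint fit of the 18 libraries with the experiment as a covariate, the log2FC of HNRNPLL common to the experiments was -1.42 (SE 0.14). The change in RNA2 differed from that in RNA1 by 0.07 on the log2 scale and the change in RNA3 by 0.20 in the joint fit with an interaction term.

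**Figure D1:**
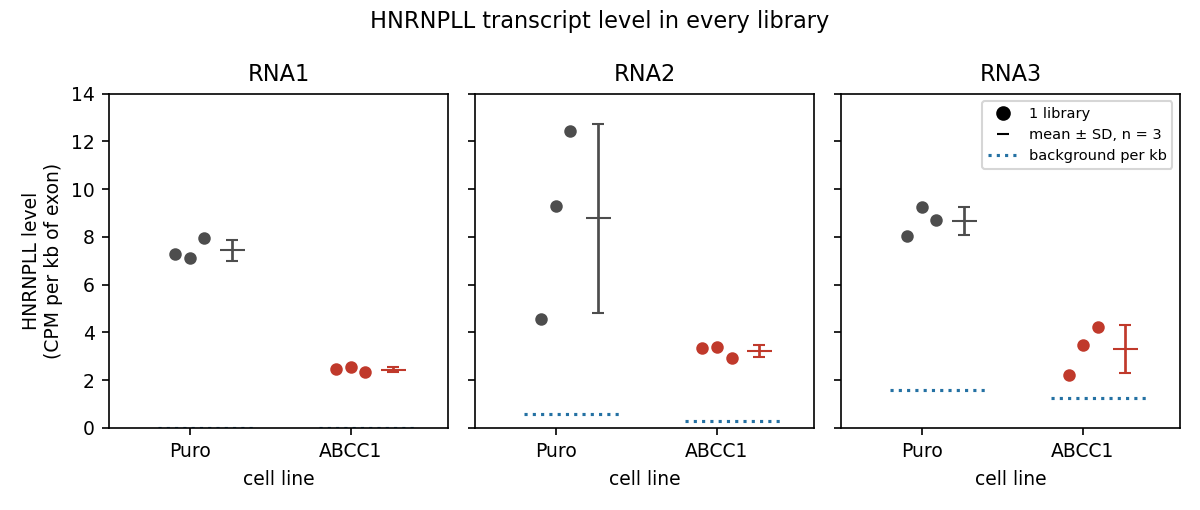
Level of HNRNPLL (CPM per kb of exon, linear axis from 0) in every library of the Puro (grey) and ABCC1 (red) lines in RNA1, RNA2 and RNA3. Points are libraries, crossed bars are the mean ± SD of 3 libraries, and dotted lines are the background level per kb, and the lowest Puro library, at 4.58 in RNA2, lies above the highest ABCC1 library of that experiment, at 3.38.

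The 3 experiments differed in how many reads fell on genes that a neuroblastoma cell is not known to use. Over 372 olfactory receptor genes, taken as a measure of background reads, the mean level was 0.00486 CPM per kb in Puro and 0.00404 in ABCC1 libraries of RNA1. It was 0.576 and 0.302 CPM per kb in RNA2 and 1.57 and 1.24 CPM per kb in RNA3, higher in Puro than in ABCC1 cells in each experiment. The background equalled 6.57% of the HNRNPLL level in Puro and 9.39% in ABCC1 libraries of RNA2, and 18.2% and 37.6% in RNA3. With the background of each library as a covariate, the log2FC of HNRNPLL was -1.72, -1.75 and -1.95 in RNA1, RNA2 and RNA3, farther from 0 in each experiment.

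HNRNPL, the closest relative of HNRNPLL in the set and a splicing regulator of most cell types, was lower with ABCC1 in RNA1, where its groups lay far apart. The Puro libraries of RNA1 had 17.99, 18.17 and 18.34 CPM per kb, and the ABCC1 libraries 12.11, 12.001 and 12.33. HNRNPL fell by 0.58 on the log2 scale (SE 0.04, n = 3 against 3, adjusted p = 1.28e-06 by edgeR's quasi-likelihood test, Benjamini-Hochberg over all genes tested). In a fit with the filter, scaling and spread shared by the 18 libraries its log2FC was -0.48 (adjusted p = 0.105). Adjusted p-values below are of the same kind, and measure the spread between cultures of a line. A gene was called at 0.05 or less. In RNA2 the Puro libraries had 9.02, 12.6 and 11.6 CPM per kb and the ABCC1 libraries 11.5, 9.06 and 9.62. These groups overlapped, with a log2FC of -0.13 (SE 0.17, adjusted p = 0.666). In RNA3 the Puro libraries had 16.2, 24.2 and 17.9 CPM per kb and the ABCC1 libraries 14.1, 13.1 and 13.8. Those groups did not overlap, but the log2FC of -0.51 (SE 0.18) did not pass the test (adjusted p = 0.109). With the background covariate it was -0.70 and passed (adjusted p = 0.00785), and without Puro replicate 2 it was -0.31 (adjusted p = 0.157). With the replicate numbers as a block it was -0.49 and passed (adjusted p = 0.0355).

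Over the 3 experiments jointly, HNRNPL fell by 0.34 on the log2 scale (SE 0.10, adjusted p = 0.00967), and with the background covariate by 0.55 (adjusted p = 1.63e-04). Its change did not pass the test of a difference between experiments (adjusted p = 0.831). Within a library, where scaling between libraries cancels, the level of HNRNPLL was 41.0% ± 2.13 (SD, n = 3) of that of HNRNPL in Puro and 20.1% ± 1.25 in ABCC1 cells of RNA1. The ratio was 77.4% ± 28.5 in Puro and 32.3% ± 4.43 in ABCC1 cells of RNA2, and 45.5% ± 6.35 and 24.3% ± 7.71 in RNA3. These ratios use the values by which HNRNPLL was chosen and are given as a description.

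PTBP1, the repressor of neuronal exons, had the highest mean per kb of the 10 transcripts in all 6 groups. In ABCC1 cells of RNA2 the mean of ELAVL3 was nearly the same. PTBP1 ranged from 81.6 to 95.0 CPM per kb in Puro and from 77.8 to 90.5 in ABCC1 libraries of RNA1, with a log2FC of -0.07 (SE 0.07, adjusted p = 0.482). In RNA2 it had 18.5, 27.1 and 24.1 CPM per kb in Puro and 33.0, 27.3 and 27.5 in ABCC1 libraries, with a log2FC of 0.33 (SE 0.18, adjusted p = 0.293). In RNA3 its log2FC was 0.08 (SE 0.20, adjusted p = 0.895). No difference between the lines was detected for PTBP1 in any experiment, although the groups of RNA2 touched without overlapping.

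PTBP2, the neuronal relative of PTBP1, was low, with means of 2.04 CPM per kb in Puro and 1.95 in ABCC1 cells of RNA1, 3.38 and 3.37 in RNA2 and 2.23 and 2.43 in RNA3. The background level equalled 70.5% of the PTBP2 level in Puro and 51.1% in ABCC1 cells of RNA3. Its log2FC was -0.06 (SE 0.06) in RNA1, -0.01 (SE 0.15) in RNA2 and 0.12 (SE 0.16) in RNA3, with adjusted p-values of 0.487, 0.982 and 0.787. The ratio of PTBP2 to PTBP1 measures the balance that turns from PTBP1 to PTBP2 as neurons differentiate. In RNA1 it was 2.00%, 2.54% and 2.60% in the Puro and 2.50%, 2.54% and 2.14% in the ABCC1 libraries (exact permutation test, two-sided, p = 1). In RNA2 it was 17.4%, 12.4% and 14.8% in the Puro and 10.9%, 12.5% and 11.3% in the ABCC1 libraries (exact permutation test, p = 0.2). In RNA3 it was 7.94%, 4.54% and 7.15% in the Puro and 6.42%, 6.28% and 6.60% in the ABCC1 libraries (exact permutation test, p = 1). With the background level subtracted from both genes, the log2 difference of this ratio in RNA3 was 0.70 in place of 0.016 (exact permutation test, p = 0.2). The ranges of the lines overlapped in every experiment, and 3 libraries against 3 cannot give a p below 0.1 in this test. The highest ratio in any library was 17.4%.

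**Figure D2:**
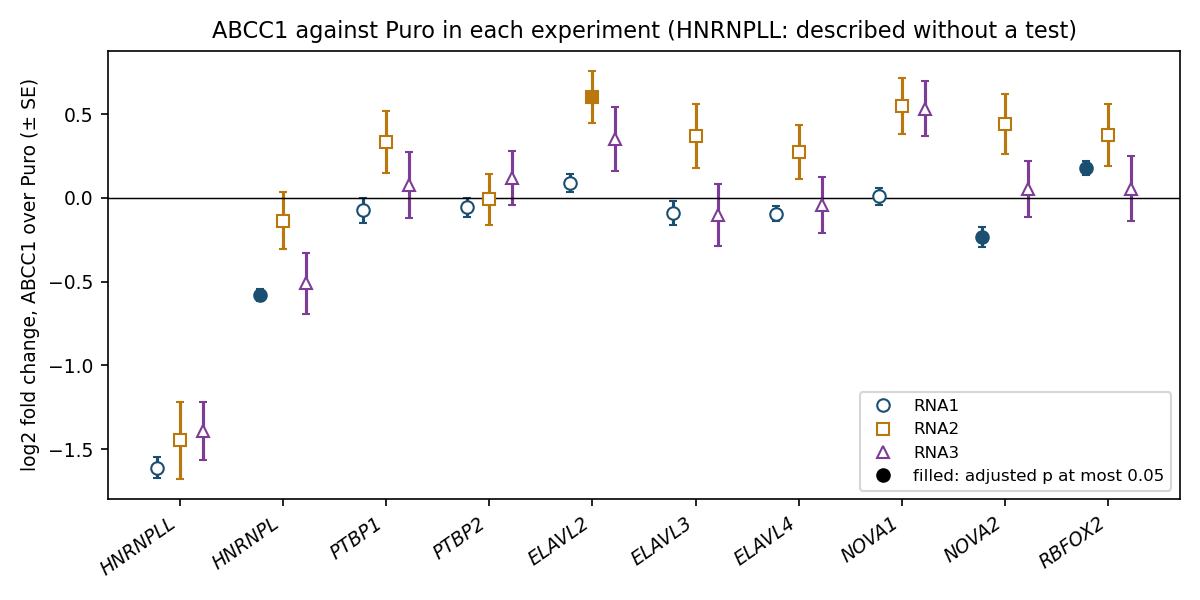
Log2 fold change of ABCC1 over Puro, with its SE, for the 10 genes in RNA1 (circles), RNA2 (squares) and RNA3 (triangles), n = 3 against 3 in each. Filled symbols mark adjusted p-values of at most 0.05, HNRNPLL is drawn open because it was not tested, and its 3 values from -1.61 to -1.39 lie below those of all other members.

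Among the neuronal Hu proteins, which bind U-rich RNA and stabilise transcripts as well as altering exon use, ELAVL2 was higher with ABCC1 in RNA2. The Puro libraries of RNA2 had 5.07, 5.16 and 4.47 CPM per kb and the ABCC1 libraries 8.58, 6.94 and 6.79. ELAVL2 rose by a log2FC of 0.60 (SE 0.16, adjusted p = 0.0486), with no overlap between the groups. The call was marginal and was lost without any single library except ABCC1 replicate 3, with adjusted p-values of 0.0712, 0.0758 and 0.219 without Puro replicates 1, 2 and 3 and 0.186 and 0.13 without ABCC1 replicates 1 and 2. With the background covariate the log2FC was 0.37 (adjusted p = 0.917). In RNA1 the Puro libraries had 7.91, 8.06 and 8.14 CPM per kb and the ABCC1 libraries 8.67, 9.06 and 7.97. These groups overlapped, with a log2FC of 0.09 (SE 0.06, adjusted p = 0.235, and 0.0131 without ABCC1 replicate 3). In RNA3 the Puro libraries had 2.195, 3.65 and 2.03 CPM per kb and the ABCC1 libraries 3.01, 3.79 and 3.28. There the log2FC was 0.35 (SE 0.19, adjusted p = 0.38, and 0.0268 without Puro replicate 2), and the background equalled 59.9% of the Puro and 36.9% of the ABCC1 level.

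ELAVL3, the Hu protein of mature neurons, had 40.8 to 46.7 CPM per kb in Puro and 38.2 to 45.3 in ABCC1 libraries of RNA1. Its log2FC was -0.09 (SE 0.07, adjusted p = 0.353) in RNA1, 0.37 (SE 0.19, adjusted p = 0.258) in RNA2 and -0.10 (SE 0.19, adjusted p = 0.853) in RNA3. Without ABCC1 replicate 3 of RNA1 its log2FC was -0.17 (adjusted p = 0.00753). ELAVL4, the Hu protein that stabilises mRNAs of growing neurites, had 33.6 to 34.2 CPM per kb in Puro and 29.8 to 32.9 in ABCC1 libraries of RNA1. Its log2FC was -0.09 (SE 0.05, adjusted p = 0.129) in RNA1, 0.27 (SE 0.16, adjusted p = 0.33) in RNA2 and -0.04 (SE 0.17, adjusted p = 0.94) in RNA3. Neither gene passed the test in any experiment with all libraries, and 5.38% of the exon bases of ELAVL3 are shared with an unnamed gene on the same strand.

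NOVA1, a regulator of neuronal exons, had overlapping groups in RNA1 and groups that lay apart in the later experiments. In RNA1 the Puro libraries had 3.63, 3.41 and 3.54 CPM per kb and the ABCC1 libraries 3.45, 3.58 and 3.64, with a log2FC of 0.01 (SE 0.05, adjusted p = 0.887). In RNA2 the Puro libraries had 1.71, 1.67 and 1.496 CPM per kb and the ABCC1 libraries 2.696, 1.97 and 2.47, with a log2FC of 0.55 (SE 0.17, adjusted p = 0.0774). In RNA3 the Puro libraries had 1.97, 2.00 and 1.81 CPM per kb and the ABCC1 libraries 2.63, 2.57 and 3.17, with a log2FC of 0.53 (SE 0.17, adjusted p = 0.0552). The groups of RNA2 and of RNA3 did not overlap, yet neither difference passed edgeR's test, while both passed by DESeq2 (adjusted p = 0.0275 and 0.0184) and with RLE scaling (0.0471 and 0.031). Neither passed by limma-voom (0.0727 and 0.0819) or with the background covariate (0.91 and 0.453). Over all alternatives the log2FC of NOVA1 ranged from 0.42 to 0.68 in RNA2 and from 0.40 to 0.62 in RNA3. In RNA3 the adjusted p was 0.0223 without Puro replicate 2 and 0.0169 without ABCC1 replicate 1, and 0.126 to 0.37 without any other library. The background equalled 35.5% of the Puro and 12.7% of the ABCC1 level of NOVA1 in RNA2, and 81.7% and 44.5% in RNA3.

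NOVA2, the paralog of NOVA1 most used in the cortex, was lower with ABCC1 in RNA1 by a small amount. The Puro libraries of RNA1 had 2.39, 2.35 and 2.24 CPM per kb and the ABCC1 libraries 2.03, 1.90 and 2.01, without overlap. NOVA2 fell by 0.23 on the log2 scale (SE 0.06, adjusted p = 0.0115). Its log2FC was 0.44 (SE 0.18, adjusted p = 0.162) in RNA2 and 0.05 (SE 0.17, adjusted p = 0.921) in RNA3, where the background equalled 61.7% of the Puro level. RBFOX2, the RBFOX protein expressed most widely outside neurons, had 47.9, 49.4 and 47.8 CPM per kb in the Puro and 55.7, 55.8 and 52.6 in the ABCC1 libraries of RNA1. RBFOX2 rose by a log2FC of 0.18 (SE 0.04, adjusted p = 0.00699), again without overlap. Its log2FC was 0.38 (SE 0.18, adjusted p = 0.24) in RNA2 and 0.06 (SE 0.19, adjusted p = 0.926) in RNA3. Both calls of RNA1 were lost with the background covariate, at log2FC -0.15 (adjusted p = 0.44) for NOVA2 and 0.22 (adjusted p = 0.141) for RBFOX2. In RNA1 that covariate cannot be told apart from the line, and the background equalled 0.21% of the NOVA2 and 0.01% of the RBFOX2 Puro level. Both were also lost in a fit with the filter, scaling and spread shared by the 18 libraries (log2FC -0.13, adjusted p = 0.965, and 0.28, adjusted p = 0.644).

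In RNA1, 3 of the 9 members other than HNRNPLL were called, RBFOX2 higher and HNRNPL and NOVA2 lower, where 37.6% of all genes tested were called. In RNA2, ELAVL2 alone was called among the 9, against 1.7% of all genes. In RNA3 none of the 9 was called by edgeR, against 2.8% of all genes, with 2 at an unadjusted p of at most 0.05. DESeq2 called 1 of the 9 and 1561 genes in all, and limma-voom none of the 9. The groups did not overlap for 4 of the 9 in RNA1, against 50.4% of all genes, for 4 in RNA2, against 29.8%, and for 2 in RNA3, against 19.5%. The median log2FC of the 9 was -0.07, 0.37 and 0.06 in RNA1, RNA2 and RNA3, beside medians of 0.01, -0.19 and -0.09 over all genes tested.

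**Figure D3:**
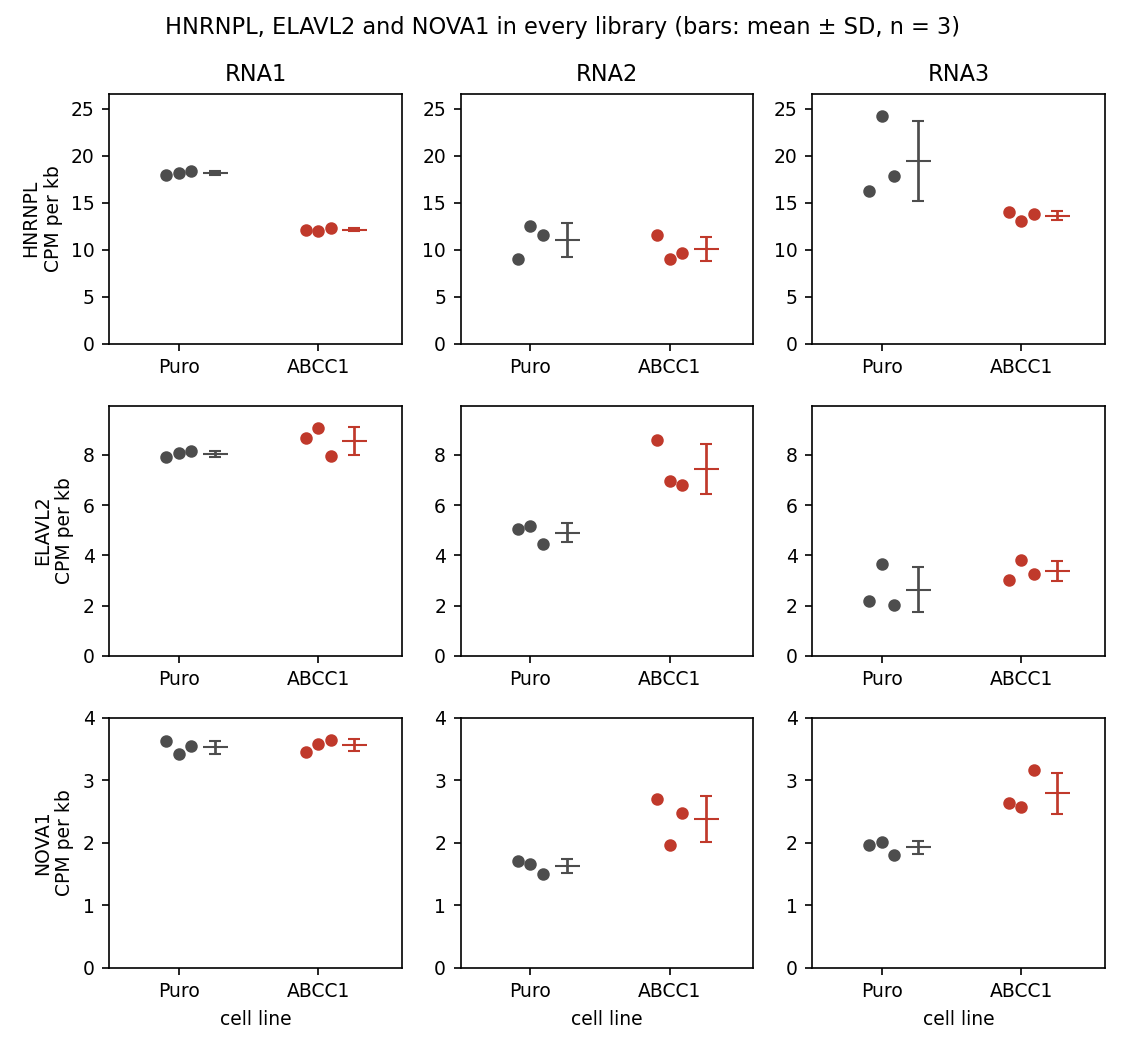
Levels (CPM per kb of exon, linear axes from 0) of HNRNPL, ELAVL2 and NOVA1 in every library of the Puro (grey) and ABCC1 (red) lines of RNA1, RNA2 and RNA3, with the mean ± SD of 3 libraries. HNRNPL is lower with ABCC1 in RNA1, at 12.001 to 12.33 against 17.99 to 18.34, and ELAVL2 is higher with ABCC1 in RNA2, at 6.79 to 8.58 against 4.47 to 5.16.

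The joint fit gave a single effect of ABCC1 over the 3 experiments, and in it 3 of the 9 members were called, where 12.4% of all genes were. HNRNPL was lower, as given above. ELAVL2 rose by a log2FC of 0.41 (SE 0.10, adjusted p = 0.00265) and NOVA1 by 0.42 (SE 0.09, adjusted p = 8.27e-04). With the background covariate these were 0.19 (adjusted p = 0.433) and 0.28 (adjusted p = 0.146), so both calls were lost. RBFOX2 had a log2FC of 0.27 (SE 0.10, adjusted p = 0.0571), and those of the other five lay between 0.08 and 0.18. The effect differed between experiments for none of the 9 by edgeR or DESeq2, against 1.19% of all genes, with unadjusted p-values at or under 0.05 for 2, NOVA1 (0.0334, adjusted 0.485) and NOVA2 (0.0372, adjusted 0.505). HNRNPL had a log2FC below 0 in all 3 experiments, as HNRNPLL had by its choice, and ELAVL2, NOVA1 and RBFOX2 had one above 0. Some lay near 0, such as 0.01 (SE 0.05) for NOVA1 in RNA1 and 0.06 (SE 0.19) for RBFOX2 in RNA3. With the background covariate the sign turned for NOVA1 in RNA1 and for ELAVL2 and RBFOX2 in RNA3. The share of all genes that kept their sign over the experiments was not counted.

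The order of the levels was alike in the 6 groups. PTBP1, ELAVL3 and RBFOX2 were the most abundant per kb in every group, and HNRNPL and ELAVL4 followed. In RNA1 all neighbours in this order had ranges apart from each other except ELAVL2 and HNRNPLL in Puro cells, at 8.04 ± 0.115 and 7.44 ± 0.442 CPM per kb (SD, n = 3), and NOVA2 and PTBP2 in ABCC1 cells, at 1.98 ± 0.0713 and 1.95 ± 0.0175. In RNA2 the ranges of PTBP1 and ELAVL3 overlapped in both lines, at means of 23.2 and 22.6 in Puro and 29.3 for each in ABCC1 cells. HNRNPLL stood among ELAVL4 and ELAVL2 in Puro cells of RNA2 and RNA3, at 8.77 ± 3.96 and 8.66 ± 0.602, and among the low genes with ABCC1, at 3.22 ± 0.254 and 3.30 ± 1.02. In RNA3, Puro replicate 2 had the highest level of the 3 Puro libraries for 9 of the 10 genes, PTBP2 being the exception. In RNA2, ABCC1 replicate 1 had the highest level of the 3 ABCC1 libraries for 9 of the 10, and its background of 0.144 CPM per kb was the lowest of that experiment.

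**Figure D4:**
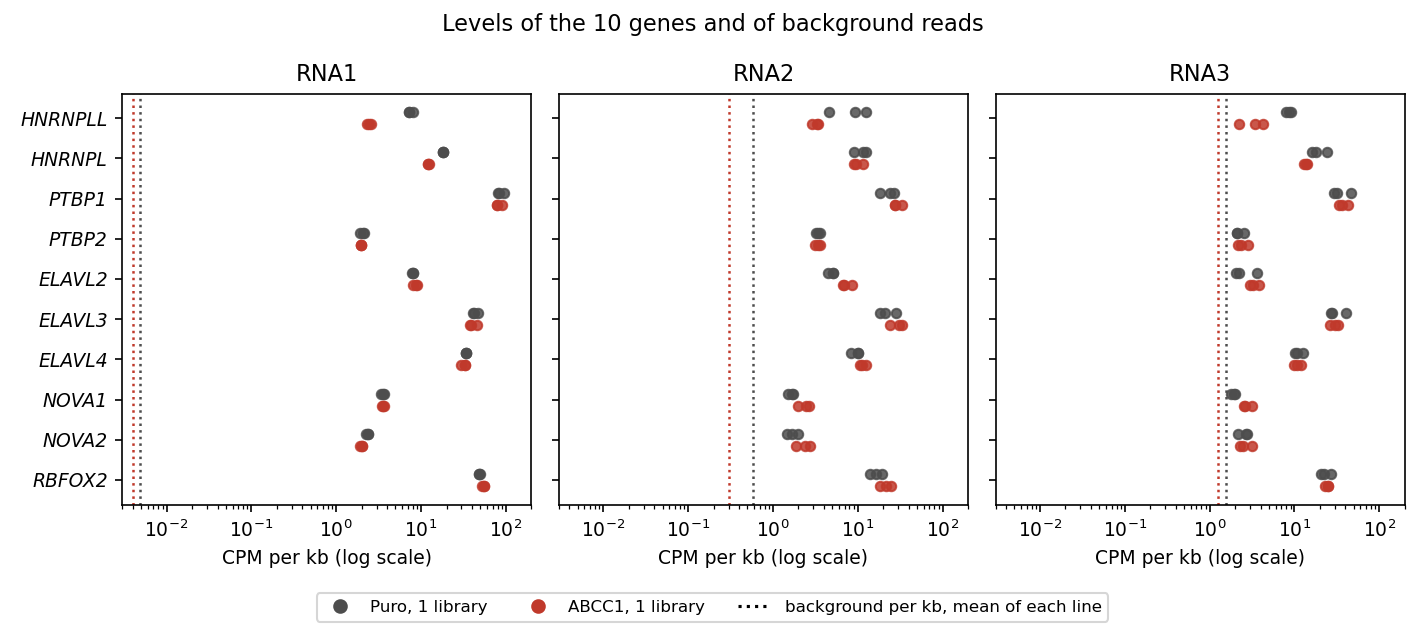
Level of each of the 10 genes (CPM per kb of exon, logarithmic axis) in every Puro (grey) and ABCC1 (red) library of RNA1, RNA2 and RNA3. Dotted lines give the mean background level of each line, which is near 0.005 in RNA1 and 1.57 and 1.24 in RNA3, close to the levels of PTBP2, NOVA1 and NOVA2.

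The Puro lines of RNA2 and RNA3 were compared directly, since both were prepared with the same kit and instrument type, although experiment, transfection and sequencing run cannot be told apart. In this fit, with the 6 libraries scaled together, 3 of the 9 members were called, against 19.4% of all genes, and all 3 had a log2FC below 0 on this scaling. ELAVL2 fell by 1.66 on the log2 scale (SE 0.20, adjusted p = 1.12e-07) and PTBP2 by 1.37 (SE 0.19, adjusted p = 1.11e-06). NOVA1 had a log2FC of -0.52 (SE 0.18, adjusted p = 0.0336), a call lost without Puro replicate 2 of RNA2 (0.081) or Puro replicate 1 or 3 of RNA3 (0.142 and 0.189). The direction of NOVA1 depends on the scaling. Scaled within each experiment, NOVA1 was higher in RNA3, with means of 1.62 CPM per kb in Puro cells of RNA2 and 1.93 in those of RNA3, with the background at 35.5% and 81.7% of them. ELAVL2, at 4.90 and 2.63 CPM per kb, and PTBP2, at 3.38 and 2.23, were lower in RNA3 on both scalings. ELAVL4 had a log2FC of -0.53 (SE 0.20, adjusted p = 0.0631), with 0.0112 without Puro replicate 1 of RNA2 and 0.0267 without Puro replicate 2 of RNA3. DESeq2 called it with all libraries. The direction of ELAVL4 turned as well, with means of 9.51 CPM per kb in RNA2 and 11.3 in RNA3 when scaled within each experiment. HNRNPLL had a log2FC of -0.80 (SE 0.25), given without a test because the same libraries entered its choice and at -0.43 without Puro replicate 3 of RNA2. Scaled within each experiment its means were 8.77 and 8.66 CPM per kb, so this value rests on the scaling of both experiments together. HNRNPL had a log2FC of 0.04 (SE 0.22, adjusted p = 0.924), beside means of 11.1 and 19.4 CPM per kb scaled within each experiment.

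The other families of splicing regulators were counted on 3 lists. Of 25 further hnRNP genes, the family to which HNRNPLL belongs, 11 fell and none rose in RNA1, or 44% called where 37.6% of all genes were, with a median log2FC of -0.16 beside 0.01 over all genes. HNRNPH3, which binds G-rich RNA, fell by 0.47 on the log2 scale (SE 0.10, adjusted p = 0.00612), from 348 ± 13.1 to 252 ± 41.1 CPM (SD, n = 3). Its paralog HNRNPH1 fell by 0.45 (SE 0.10, adjusted p = 0.00804). No hnRNP gene was called by edgeR in RNA2, where 1.7% of all genes were, and 5 had an unadjusted p of at most 0.05. DESeq2 called 2 of the list as higher and 2556 genes in all, and limma-voom none of the list. In RNA3, PCBP1, a C-rich RNA-binding protein, was the gene called by edgeR, with a log2FC of 0.65 (SE 0.19, adjusted p = 0.0339). That was 4% of the list where 2.8% of all genes were called. DESeq2 called 2 of the list as higher and 1561 genes in all. The median log2FC of the family was 0.22 in RNA2 and 0.01 in RNA3, beside -0.19 and -0.09 over all genes.

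SR proteins, which bind exonic enhancers and often act against hnRNP proteins, were mostly higher in RNA1, where 9 of the 15 matched genes of a list of 16 rose and 1 fell, against 37.6% of all genes called. The difference between this list and the hnRNP list was not tested. SRSF10, a splicing repressor when dephosphorylated, rose by a log2FC of 0.39 (SE 0.10, adjusted p = 0.00957) in RNA1 and by 1.04 (SE 0.17, adjusted p = 1.06e-05) in RNA3. SRSF4 rose by 0.32 (SE 0.06, adjusted p = 0.00138) in RNA1 and by 0.78 (SE 0.18, adjusted p = 0.00332) in RNA3. SRSF9 fell by 0.13 (SE 0.04, adjusted p = 0.042) in RNA1 by edgeR, while DESeq2 called no gene of the list as lower and 8 as higher. In RNA3, 3 of the 15 rose and none fell by edgeR, where 2.8% of all genes were called. DESeq2, which called 1561 genes in all, called 10 of the list and limma-voom 4, all higher. The 3 were SRSF10, SRSF4 and SRSF6 (log2FC 0.73, SE 0.19, adjusted p = 0.0118), the last named after its values were seen. In RNA2 none was called by edgeR, with 10 at an unadjusted p of at most 0.05, where 1.7% of all genes were called. DESeq2 called 10 of the list and 2556 genes in all, and limma-voom 3 and 1307, and those of the list were all higher. The median log2FC of the list was 0.17, 0.43 and 0.45 in RNA1, RNA2 and RNA3, beside 0.01, -0.19 and -0.09 over all genes. Of all genes called by edgeR, 73.1% in RNA2 and 72.6% in RNA3 were higher. In RNA2 the medians of the hnRNP list (0.22), the other splicing regulators (0.23) and the 9 members (0.37) also lay above that of all genes.

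Among 35 other splicing regulators, 30 were tested in RNA1, of which 16 fell and 1 rose, or 56.7% called where 37.6% of all genes were, and DESeq2 called 13 as lower and 1 as higher. KHDRBS3, a STAR protein of neurons, was the gene that rose, by a log2FC of 0.40 (SE 0.05, adjusted p = 1.35e-04). MSI1, an RNA-binding protein of neural progenitors, fell by 1.39 on the log2 scale (SE 0.11, adjusted p = 7.13e-06) in RNA1 and by 1.07 (SE 0.17, adjusted p = 5.57e-06) in RNA3. MBNL3 had a log2FC of -0.99 (SE 0.05, adjusted p = 2.69e-07) in RNA1 and -0.96 (SE 0.17, adjusted p = 6.39e-05) in RNA3. MBNL2 had a log2FC of -0.88 (SE 0.04, adjusted p = 6.36e-08) in RNA1 and -1.12 (SE 0.17, adjusted p = 1.06e-06) in RNA3. These muscleblind proteins bind YGCY elements and promote adult exon patterns. MSI1, MBNL3 and MBNL2 were the 3 genes of the list called in RNA3 by edgeR, all lower, or 8.57% where 2.8% of all genes were called. DESeq2, which called 1561 genes in all, called 3 of the list as lower and 2 as higher. In RNA2 none of the 34 tested was called by edgeR, where 1.7% of all genes were, with 12 at an unadjusted p of at most 0.05. DESeq2 called 3 of the list as higher and 2556 genes in all, and limma-voom none of the list. The median log2FC of the list was -0.15, 0.23 and -0.07 in RNA1, RNA2 and RNA3, beside 0.01, -0.19 and -0.09 over all genes.

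Most tested genes around HNRNPLL were not called. Within 500 kb of the gene on GRCh37, 34 other genes are annotated and 24 were tested in at least 1 experiment. In RNA1, 5 of 13 tested neighbours rose and none fell, namely CYP1B1, ATL2, SRSF7, GEMIN6 and SOS1-IT1, with log2FC values from 0.16 to 0.41, and DESeq2 called 3 and limma-voom 4, all higher. This share was near the 37.6% of all genes called in RNA1. In RNA2 none of 20 was called by edgeR, where 1.7% of all genes were, with 8 at an unadjusted p of at most 0.05. DESeq2 called 4 of them and 2556 genes in all, and limma-voom 1 and 1307. The neighbours so called were all higher. In RNA3, 3 of 24 were called, where 2.8% of all genes were. ATL2, an endoplasmic reticulum GTPase, rose by a log2FC of 0.54 (SE 0.16, adjusted p = 0.0424) and GEMIN6, a component of the SMN complex that assembles spliceosomal snRNPs, by 0.87 (SE 0.16, adjusted p = 1.62e-04). An unnamed gene, ENSG00000232518, 65.1 kb away, fell by 1.45 (SE 0.43, adjusted p = 0.0390) from a mean of 3.396 to 1.24 CPM by edgeR, in libraries with a background of 1.57 and 1.24 CPM per kb, and limma-voom also called 1 neighbour as lower. DESeq2 called none lower but gave no adjusted p for 15 of the 24. SRSF7, an SR protein 140 kb away, had a log2FC of 0.28 (adjusted p = 0.0144) in RNA1, 0.43 (0.164) in RNA2 and 0.57 (0.0515) in RNA3. The only tested gene inside the span of HNRNPLL, ENSG00000235586 on the opposite strand, was tested in RNA2 and RNA3 at 0.46 to 2.10 CPM and was not called.

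**Figure D5:**
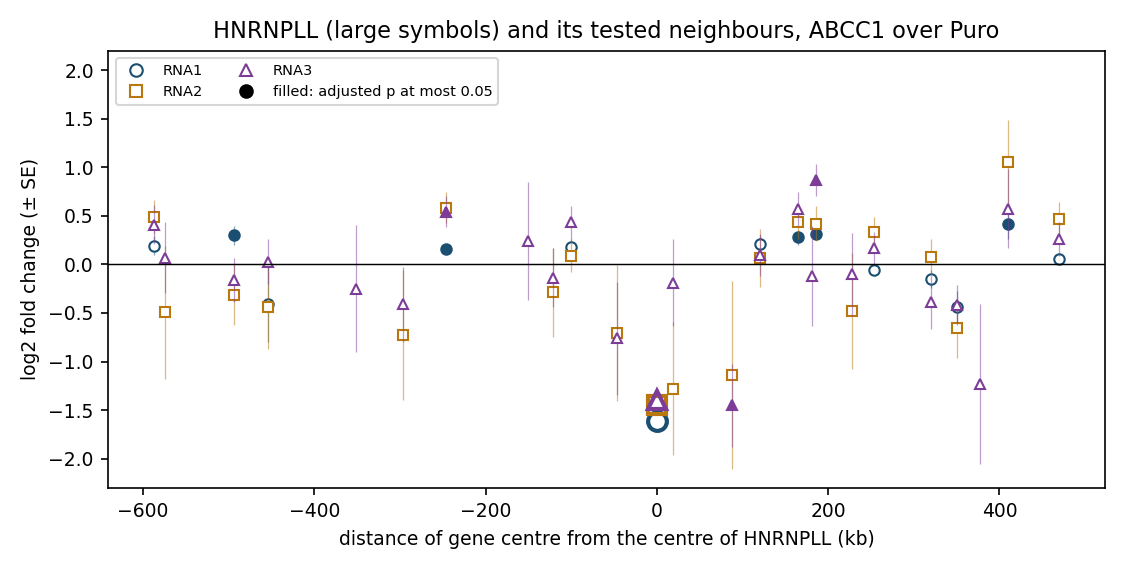
Log2 fold change of ABCC1 over Puro (± SE, n = 3 against 3) of the genes tested within 500 kb of HNRNPLL, against the distance of each gene's centre from that of HNRNPLL in kb, in RNA1 (circles), RNA2 (squares) and RNA3 (triangles). Large open symbols at 0 are HNRNPLL, filled symbols mark adjusted p-values of at most 0.05, and in RNA1 all 5 called neighbours lie above 0.

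The genes whose levels followed that of HNRNPLL most closely were sought by the Pearson correlation of log2(CPM + 0.5), centred on the mean of each experiment, over the 18 libraries and 10466 genes with a mean of at least 5 CPM in every group. They were CLGN, a chaperone of the endoplasmic reticulum (r = 0.965), RFK, riboflavin kinase (0.964), BUB1, a mitotic checkpoint kinase (0.963), TOX3, an HMG-box factor (0.958), and HMMR, a hyaluronan receptor of the spindle (0.953). The 18 libraries share their lines and experiments, so these values describe how alike the patterns were and carry no test. CLGN had log2FC values of -1.03, -0.98 and -0.83 and TOX3 of -1.38, -0.77 and -1.10 in RNA1, RNA2 and RNA3. Among the members, HNRNPL had the highest correlation with HNRNPLL, at 0.81 and rank 221, and NOVA1 and ELAVL2 had the lowest, at -0.66 and -0.56.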

How the data were processed

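RNA from the 18 libraries was sequenced as read pairs. According to the submitters' processing notes and the study's methods, the authors made FASTQ files with bcl2fastq 2.18, aligned them with STAR 2.7.3a to GRCh37 with vector sequences added, per the file headers,, and counted pairs on exons per gene with featureCounts (Subread 2.0.0). No strand setting was given, so a gene and its antisense partner cannot be told apart. The authors deposited raw counts per gene, without normalization, for 57905 Ensembl genes, 92 spike-ins and 6 vector sequences. The labels name 2 library kits for RNA1, and the kit in the study's methods was taken. Symbols were matched through a RefSeq gene table for 39538 identifiers.

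Counts were fitted within each experiment in R 4.3.3 with edgeR 4.0.16 (filterByExpr at a minimum count of 10, TMM, robust quasi-likelihood test, two-sided), adjusted by Benjamini-Hochberg over all genes tested. The biological coefficient of variation was 5.67% in RNA1, 35.3% in RNA2 and 19.7% in RNA3. Joint fits took experiment as a covariate. The alternatives were DESeq2 1.42.0, limma 3.58.1 (voom), RLE scaling, other filters, a replicate block and a background covariate. Further ones were a fit with the filter, scaling and spread shared by the 18 libraries, and leaving out each library. The test was checked on simulated counts with known changes. Those counts had a single spread for every experiment, so the check does not cover the larger spread of RNA2. Across the 18 pairs of libraries of a group the chi-square of counts was 1.48 or more per degree of freedom, so none was counted as a duplicate. Depth per library is given with each experiment, and the spread was largest in RNA2, not in the shallower RNA3. Duplicates from amplification were not removed by a molecular tag.

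The members and lists were chosen with earlier results of these data known. Named from each list were the 2 called genes with the largest rise and fall in each experiment at 1 CPM or more in both lines, any gene called in 1 direction in all 3 experiments, the tested genes within 500 kb of HNRNPLL and the 5 genes most like it. ABCC1 protein, APP processing and splicing itself were not analysed here. The result of a list of lymphocyte markers is not reported here.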

Additional observations from a re-analysis of the deposited data

How the results depend on the processing

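HNRNPLL had a negative log2 fold change under every alternative within the experiments and jointly, from -1.95 to -1.10. The background covariate cannot be told apart from the line in RNA1 and RNA2. With each library's background as a covariate, 1705 genes were called in RNA1, 9 in RNA2 and 1921 jointly, and 1, 0, 1 and 1 of the 9 other members in RNA1, RNA2, RNA3 and jointly, HNRNPL being that member each time. With that covariate the log2 fold change turned to -0.059 for NOVA1 in RNA1, to -0.0012 for ELAVL3 in RNA2, to -0.35 for PTBP1, -0.11 for ELAVL2 and -0.16 for RBFOX2 in RNA3, and jointly to -0.046 for PTBP1, -0.14 for ELAVL3, -0.053 for ELAVL4 and -0.055 for NOVA2. In a fit with the filter, scaling and spread shared by the 18 libraries, 1528 genes were called in RNA1 and 4924 in RNA2. It called 0, 2 and 1 members in RNA1, RNA2 and RNA3. Values turned to 0.030 for PTBP1, 0.045 for PTBP2, 0.013 for ELAVL3 and 0.0055 for ELAVL4 in RNA1, 0.0092 for PTBP2 in RNA2 and 0.038 for ELAVL4 in RNA3. The scaling changed along with the spread, so these turns cannot be put down to the spread alone. All 10 genes had higher values in RNA1 than in the main fit, HNRNPLL moving from -1.61 to -1.51. In that fit HNRNPL in RNA1 had -0.48 (adjusted p = 0.105).

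DESeq2 called 2556 genes in RNA2, 1561 in RNA3 and 904 for the difference between experiments, where edgeR called 581, 1021 and 551. Limma-voom called 1307 in RNA2, RLE scaling 1086 and no filter 1402. Of the members, DESeq2 and RLE scaling each called 2 in RNA2 and 1 in RNA3, and a filter at 1 CPM called 0 and 1. NOVA1 was the added member, with adjusted p-values of 0.0275 and 0.0471 in RNA2 and 0.0184 and 0.031 in RNA3 by DESeq2 and RLE scaling. DESeq2 and RLE scaling both gave PTBP2 0.11 in RNA2 and ELAVL4 0.022 in RNA3, and HNRNPL -0.048 between the Puro lines. PTBP2 had 0.051 with no filter in RNA2 and -0.015 and -0.014 jointly by DESeq2 and RLE scaling. RLE scaling moved the median of all genes by 0.106 in RNA2, and turned the split of higher against lower calls from 741 and 280 to 966 and 199 in RNA3 and from 4033 and 1718 to 2822 and 2814 jointly.

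Leaving out 1 library at a time gave 8 to 1359 genes in RNA2, 394 to 2762 in RNA3 and 4330 to 10137 between the Puro lines, and 3 to 5, 0 to 1 and 0 to 2 members in RNA1, RNA2 and RNA3. Log2 fold changes ranged from -0.0095 to 0.034 for NOVA1 in RNA1, from -0.049 to 0.084 for PTBP2 in RNA2, and in RNA3 from -0.021 to 0.31 for PTBP1, -0.17 to 0.13 for ELAVL3, -0.11 to 0.071 for ELAVL4 and -0.055 to 0.15 for NOVA2, and from -0.14 to 0.18 for HNRNPL between the Puro lines. The log2 difference of the PTBP2 to PTBP1 ratio ranged from -0.11 to 0.093 in RNA1 and from -0.23 to 0.18 in RNA3.

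Same-numbered Puro and ABCC1 libraries had correlations of -0.32 to 0.19 and other pairs of -0.29 to 0.26. The numbers were not taken as pairs, although 3 libraries per line cannot settle whether they were. When replicate numbers entered the model as a replicate block, 1885 genes and 2 members were called in RNA3, HNRNPL (-0.49, adjusted p = 0.0355) and NOVA1 (0.53, adjusted p = 0.0223), and ELAVL4 was called between the Puro lines (-0.53, adjusted p = 0.0142). The cause of these shifts was not tested. With the background subtracted, the log2 difference of the PTBP2 to PTBP1 ratio in RNA3 was 0.70 (exact permutation test, p = 0.2).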
